A study of Homo sapiens with 3 samples.

Results

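Wide YBX1 peaks that stand alone are stretches of the genome of at least 1000 bp listed as a single YBX1 peak, with no further peak within 5000 bases on either side. They numbered 411 of the 17794 peaks on chromosomes 1 to 22 and X, and of 17802 peaks in the whole list. The members were chosen by 2 measured values, their width and their distance to the nearest peak, so both are given as descriptions and neither is tested. The cells were of the T24 line, which was established from a human bladder carcinoma, and Flag-tagged YBX1 was overexpressed in all 3 samples. There was 1 sample each of RIP input, of RNA captured with YBX1 on anti-Flag beads (YBX1 RIP), and of captured RNA treated with bisulfite to read m5C. Captured RNA was trimmed on the beads for 8 minutes with micrococcal nuclease, after the input had been set aside, and reads were paired and 150 bases long. How far this digestion set the widths of peaks was not tested. No group has a replicate, no capture from cells without the Flag tag is among the samples, and the source label of the bisulfite sample names T25 where its strain label gives T24. The values used are peak positions on hg19, printed as deposited, and widths are differences between the 2 deposited positions of a peak. Peak height, read depth, strand and gene are not in the list, so the RNA under each peak was not identified here and depth per peak is unknown. The cell line could not be checked against marker genes either.

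YBX1 is an abundant cold-shock-domain protein that packages mRNA into ribonucleoprotein particles, affects the translation and stability of mRNA, and has been described as a reader of m5C. Mature mRNA is made of exons that lie apart in the genome. RNA of a spliced transcript therefore maps as separate blocks, and long blocks come from long exons, unspliced transcripts or retained intron sequence. Peak finding can also bridge short stretches without reads, so a wide peak need not be a continuous piece of RNA. Genes made of a single exon and genes with a long terminal exon are known sources of long blocks. Which of these lies under the peaks described here was not tested, because no annotation of hg19 was used.

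Standing alone was less common among wide peaks than among narrow ones. Of 1740 wide peaks, 23.6% stood alone (95% Wilson interval 21.7 to 25.7%), against 33.0% (32.2 to 33.7%) of the 16054 peaks under 1000 bp. Wide peaks made up 7.21% (6.56 to 7.91%) of the 5703 lone peaks and 11.0% (10.4 to 11.6%) of the 12091 peaks with a neighbour. Intervals on shares cover counting error alone. They take each peak as a separate observation, whereas peaks near each other can come from the same transcript. The members held 732 kb of sequence, or 6.42% of all bases under peaks on these chromosomes.

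The fall with width took place below 1000 bp. Of peaks of 400 to 499 bp, 35.2% (34.3 to 36.1%) stood alone. This was 31.1% (29.6 to 32.6%) at 500 to 699 bp and 24.3% (22.5 to 26.3%) at 700 to 999 bp. Above that width the share had no steady direction. It was 23.8% at 1000 to 1499 bp, 20.3% at 1500 to 1999 bp, 26.8% at 2000 to 2999 bp, 26.4% at 3000 to 4999 bp and 20.4% (11.5 to 33.6%) for the 49 peaks of 5000 bp or more.

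**Figure D1:**
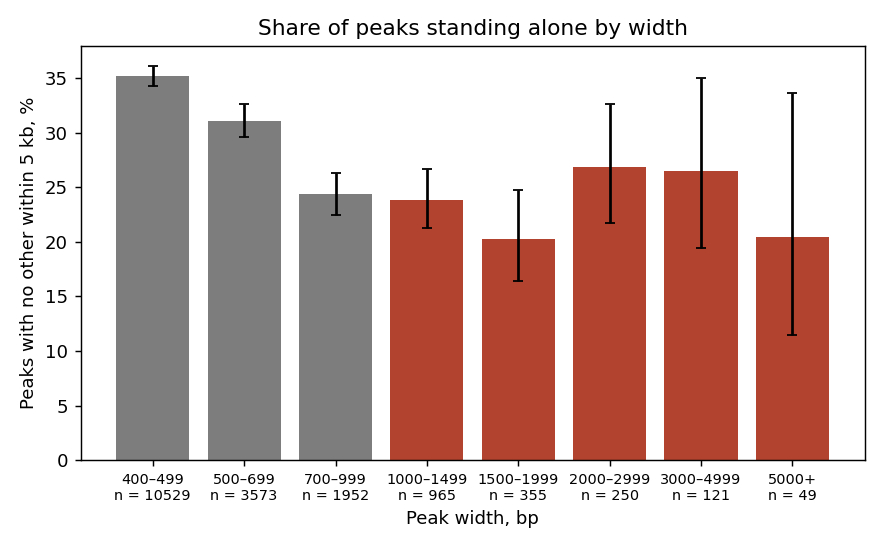
Share of peaks with no other peak within 5 kb (vertical axis, %) by peak width in bp (horizontal axis, with the number of peaks in each class). Red bars are classes at or above the 1000 bp minimum, grey bars narrower peaks, and error bars are 95% Wilson intervals. The share falls from 35.2% to 24.3% across the grey bars and lies between 20.3% and 26.8% across the red ones.

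Members and wide peaks with a neighbour had similar medians and quartiles of width. Their widths ran from 1000 to 6837 bp with a median of 1376 bp (95% interval of the median 1317 to 1479 bp) and quartiles of 1146 and 2050 bp. The 1329 wide peaks with a neighbour had a median of 1412 bp (1378 to 1451 bp) and quartiles of 1152 and 1932 bp. The widest member measured 6837 bp, and the widest peak with a neighbour 18654 bp. These maxima come from sets of unlike size, 411 and 1329 peaks, so they cannot be compared directly. A width of 5000 bp or more was reached by 10 members (2.43%, 1.33 to 4.42%) and by 39 peaks with a neighbour (2.93%, 2.15 to 3.99%), with intervals that overlapped.

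**Figure D2:**
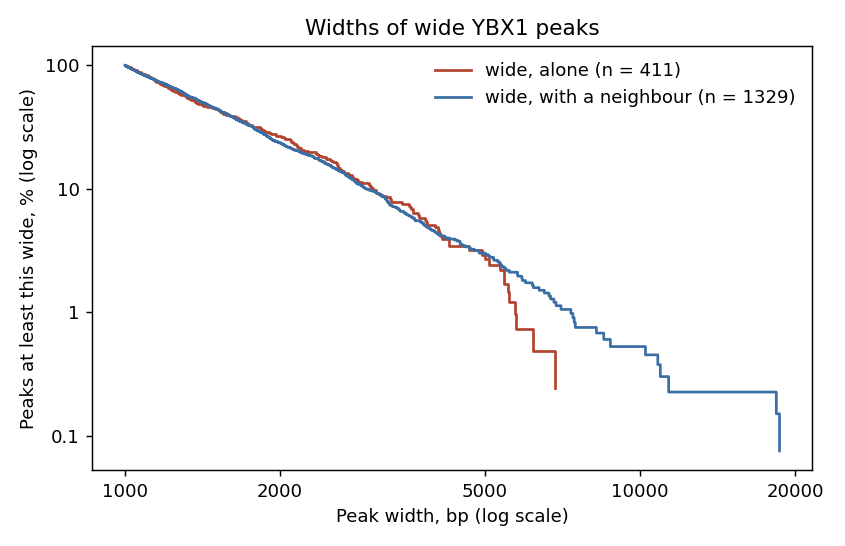
Share of peaks at least as wide as the value on the horizontal axis (width in bp, log scale; vertical axis in %, log scale) for the 411 members (red) and the 1329 wide peaks with a neighbour (blue). The lines run together to about 5000 bp, after which the red line ends at 6837 bp and the blue line goes on to 18654 bp.

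Most members were only somewhat wider than the minimum. A width below 1500 bp was measured for 230 of them, 72 measured 1500 to 1999 bp, 67 measured 2000 to 2999 bp and 42 measured 3000 bp or more. At the width threshold, the narrowest members measured 1000 bp (chr16:24801683-24802683), 1001 bp (chr1:85647750-85648751) and 1003 bp (chr5:154134858-154135861). Lone peaks of 999 bp (chr3:111603369-111604368), 998 bp (chr6:158516559-158517557) and 998 bp (chr3:135914172-135915170) fell just outside it.

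The widest member, of 6837 bp, lay at chr4:126236086-126242923. No other peak was found for 604 kb before it and 76.8 kb after it. The second, of 6205 bp at chr2:73675063-73681268, had its nearest peaks 21.2 kb before and 35.4 kb after. On chromosome 17 a member of 5743 bp (chr17:17696124-17701867) had a peak 5060 bases away, close to the limit of the rule. A member of 5706 bp on chromosome 22 (chr22:42605623-42611329) was 29.8 kb from its nearest peak. Within 100 kb, these 4 members had 5, 7, 15 and 5 other peaks, in the order given, against a median of 4 over all members.

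On chromosome 1, 2 members of nearly the same width had different surroundings. The member of 5565 bp at chr1:39874658-39880223 had peaks 7980 bases before and 7668 bases after it, and 63 other peaks within 100 kb, the most of any member. The member of 5550 bp at chr1:42045428-42050978 had 5 within 100 kb, and none for 606 kb after it. Next came members of 5450 bp (chr8:77763017-77768467), with peaks 7848 bases before and 6833 bases after it, and of 5445 bp (chr6:143090764-143096209), with a peak 7899 bases before it and none for 170 kb after it. A member of 5345 bp (chr22:32108025-32113370) had its nearest peak 7125 bases away, and one of 5099 bp (chr22:28192642-28197741) had a single other peak within 100 kb, which was itself a member.

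A further 10 members complete the 20 widest, with widths of 4002 to 4994 bp. Chromosome 1 held those at chr1:27873706-27878700 (4994 bp) and chr1:179074003-179078661 (4658 bp). The latter had a peak 5201 bases after it and none for 630 kb before it. The member of 4929 bp at chr2:227659563-227664492 had 1 other peak within 100 kb and also within 1 Mb, 60.1 kb before it. The member at chr3:151162839-151167093 measured 4254 bp. A pair on chromosome 19, at chr19:47421636-47425717 (4081 bp) and chr19:47503504-47507756 (4252 bp), lay in the same 1 Mb window. The others were found at chr22:46929433-46933556 (4123 bp), chr11:12281255-12285332 (4077 bp), chr9:138376184-138380230 (4046 bp) and chr22:30090653-30094655 (4002 bp). Of these 20, the member on chromosome 9 was the only one with no other peak within 100 kb.

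Beyond the 5 kb that the rule set, the distances of members and narrow lone peaks to other peaks, which the rule used up to that limit, are given here as a description. Their median distance to the nearest peak was 17.9 kb (95% interval of the median 14.6 to 21.4 kb), against 17.8 kb (16.9 to 18.5 kb) for the 5292 lone peaks under 1000 bp. A distance of over 20 kb was found for 46.5% (41.7 to 51.3%) of members and 46.4% (45.0 to 47.7%) of narrow lone peaks. For over 100 kb the shares were 13.4% (10.4 to 17.0%) and 15.1% (14.2 to 16.1%). Within 1 Mb, members had a median of 25 other peaks and narrow lone peaks 23, while wide peaks with a neighbour had 42. The surroundings of members were thus sparser than those of the remaining wide peaks, which the rule fixes in part.

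Among members, the median distance was lower in each of the wider classes than in the narrowest. It was 22308 bases (17960 to 28960) for the 230 members under 1500 bp. At 1500 to 1999 bp it was 12212 bases (9289 to 21427), at 2000 to 2999 bp 13182 bases (10454 to 17820), and for the 32 members of 3000 to 4999 bp 9791 bases (7669 to 34762). The 10 widest had a median of 14568 bases (6833 to 54666). The interval of the narrowest class overlapped those of 3 of the 4 wider classes, so the order of the classes is uncertain.

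At the distance threshold, the members closest to another peak were 5027 bases (chr5:176636505-176639262), 5032 bases (chr12:49161564-49162587) and 5060 bases (chr17:17696124-17701867) away from it. They were followed by chr5:154193369-154197093, at 5075 bases and 3724 bp wide, and chr14:21853297-21854424, at 5111 bases. Wide peaks at 4978 bases (chr3:119133700-119135367), 4916 bases (chr10:123970072-123971129) and 4916 bases (chr20:47886426-47888384) fell just outside. No peak lay at exactly 5000 bases.

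At the other extreme, 5 members (1.22%, 0.521 to 2.82%) had no other peak within 1 Mb. The same held for 104 of the 5292 narrow lone peaks (1.97%, 1.62 to 2.38%). The most isolated member, at chr4:30722075-30725152 and 3077 bp wide, was 4.86 Mb from its nearest peak. The others lay at chr5:86563807-86564885 (1078 bp wide, 3.36 Mb from a peak), chr18:24127760-24128912 (1152 bp, 1.44 Mb), chrX:131415476-131416622 (1146 bp, 1.38 Mb) and chr15:54304923-54307997 (3074 bp, 1.22 Mb). Members more than 100 kb from any peak numbered 55, with a median width of 1361 bp. They were 13.4% of the members and 6.43% (4.98 to 8.28%) of the 855 peaks that far from any other. Members were 7.21% (6.56 to 7.91%) of all lone peaks.

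**Figure D3:**
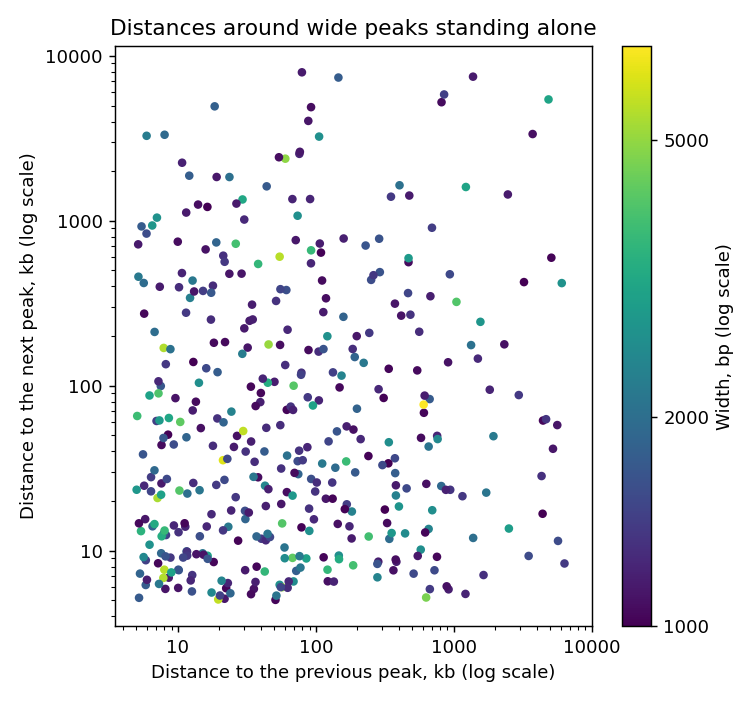
Distance from each member to the previous peak (horizontal axis, kb, log scale) and to the next peak (vertical axis, kb, log scale) on its chromosome, with colour giving the width in bp on a log scale; members that are the first or last peak of a chromosome are not drawn. Points fill the whole field from 5 kb upward, and few of them are remote on both sides: 55 members have no peak within 100 kb.

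Members near other peaks lay mostly at the edge of a run. When peaks up to 20 kb apart were joined into runs, 191 members remained single, 169 were the first or last peak of a run and 51 lay inside. Of the 5292 narrow lone peaks, 2453 were single, 1913 first or last and 926 inside, so these too lay mostly at an edge. In a joined pair both peaks are ends by definition. In runs of 3 or more peaks, 128 of 179 members were at an end (71.5%, 64.5 to 77.6%), against 1202 of 2128 narrow lone peaks (56.5%, 54.4 to 58.6%). The difference was 15.0 percentage points (95% Newcombe interval 7.71 to 21.5). This comparison was not planned and was added after the data had been seen. Place in a run was not itself a criterion for members. It follows, however, from the distances to other peaks, of which the rule used the first 5 kb. Leaving out peaks with a neighbour that close favours ends, among members and among narrow lone peaks. The shares at an end are thus fixed in part by the rule. Width, which the rule also used, separates the groups compared, so their difference is given as a description. The 179 members came from 170 runs, so few shared a run, while the narrow lone peaks came from 1073 runs.

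The difference was present at each joining distance tried. At 10 kb, 84.0% (75.6 to 89.9%) of 100 members and 70.6% (67.8 to 73.3%) of 1032 narrow lone peaks were at an end. At 50 kb the shares were 58.6% (52.6 to 64.4%) of 266 and 44.9% (43.2 to 46.6%) of 3325. These 3 comparisons use largely the same peaks and do not count as separate evidence. Both kinds of peak were in runs of the same median size, 6 peaks at 20 kb.

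Long runs showed the larger gap. In runs of 10 or more peaks joined at 20 kb, 62.7% (50.0 to 73.9%) of 59 members were at an end, against 38.9% (35.4 to 42.6%) of 701 narrow lone peaks. In runs of 5 to 9 peaks it was 71.4% (59.3 to 81.1%) of 63 against 55.1% (51.3 to 58.8%) of 666. In runs of 3 or 4 peaks, where most places are ends, the values were 80.7% (68.7 to 88.9%) of 57 and 73.9% (70.6 to 76.8%) of 761, with intervals that overlapped. Whether the gap differed between run sizes was not tested.

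Across lone peaks in runs of 3 or more peaks joined at 20 kb, the share at an end was higher in most of the wider classes. It was 54.2% (51.7 to 56.7%) at 400 to 499 bp, 60.8% (56.0 to 65.5%) at 500 to 699 bp and 65.4% (58.5 to 71.8%) at 700 to 999 bp. Among members it was 71.4% (61.0 to 80.0%) at 1000 to 1499 bp, 63.9% (47.6 to 77.5%) at 1500 to 1999 bp and 76.3% (64.0 to 85.3%) at 2000 bp or more. The intervals of the classes on either side of the 1000 bp minimum overlapped, and whether it marked a step was not tested. Of the 128 members at an end, 69 (53.9%, 45.3 to 62.3%) were at the end of lower coordinate, so neither genomic direction was favoured beyond counting error. With no strand in the list, an end cannot be read as the 5′ or 3′ end of a transcript.

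**Figure D4:**
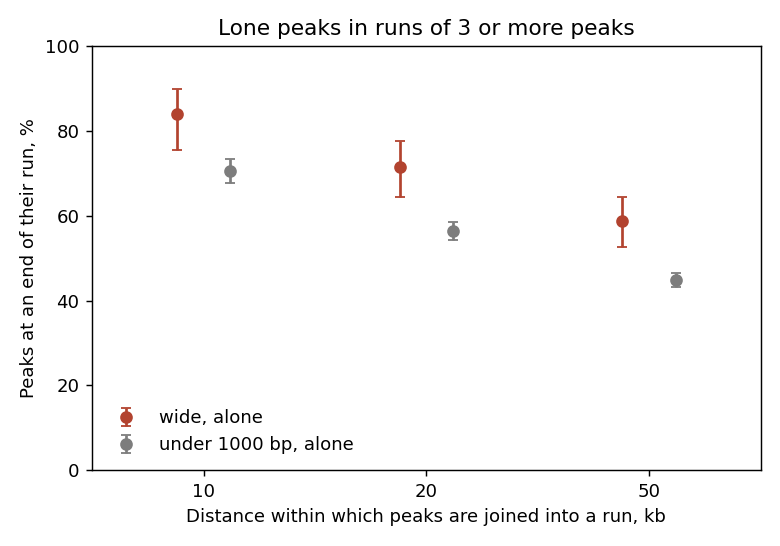
Share of lone peaks that are the first or last peak of their run (vertical axis, %), in runs of 3 or more peaks joined within 10, 20 or 50 kb (horizontal axis), for members (red) and lone peaks under 1000 bp (grey), with 95% Wilson intervals. The members lie above the narrow lone peaks at all 3 distances, at 71.5% against 56.5% for 20 kb.

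The peak nearest to a member was itself wide for 45 members (10.9%, 8.28 to 14.3%), and for 7.50% (6.82 to 8.24%) of narrow lone peaks. It was another member for 31 members (7.54%, 5.36 to 10.5%), against 4.12% (3.62 to 4.69%) of narrow lone peaks that had a member as the nearest peak. Of those 31 members, 20 formed 10 pairs that were nearest to each other and so were counted from both sides. The intervals of the members and the narrow lone peaks therefore cannot be compared.

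Members were spread over 342 of the 1547 windows of 1 Mb that held any peak, with 1 member in 287 windows, 2 in 44 and 3 or more in 11. The largest number was 4, in 3 windows. That on chromosome 2 from 73 to 74 Mb held the member of 6205 bp and others of 1482, 2138 and 1283 bp, among 21 peaks. That on chromosome 1 from 27 to 28 Mb held members of 1943, 1183, 1013 and 4994 bp among 34 peaks. In the window on chromosome 17 from 76 to 77 Mb, members of 2597, 1276, 1562 and 1135 bp were 4 of 16 peaks. A window on chromosome 19 from 48 to 49 Mb held 3 members among 9 peaks. Narrow lone peaks were not counted by window, so whether members cluster was not tested.

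Every chromosome from 1 to 22 and X carried at least 1 member, but the share of wide peaks that stood alone ranged widely. It was highest on chromosome 18, where 14 of 20 wide peaks stood alone (70.0%, 48.1 to 85.5%), and lowest on chromosome 21, with 1 of 26 (3.85%, 0.682 to 18.9%). The intervals of chromosomes 18, 2 (37.5%, 27.7 to 48.5%) and 4 (37.2%, 24.4 to 52.1%) lay above the common share of 23.6%, that of chromosome 21 lay below it, and the other 19 included it. The intervals were not adjusted for 23 chromosomes. With lone peaks in place of wide peaks as the denominator, the intervals of chromosomes 18 (11.1%, 6.73 to 17.8%), 2 (7.39%, 5.22 to 10.4%) and 4 (6.72%, 4.18 to 10.6%) all included the common share of 7.21%. Only that of chromosome 17 (9.87%, 7.24 to 13.3%) then lay above it and only that of chromosome 21 (1.06%, 0.188 to 5.78%) below it, while 21 included it. In number, chromosome 17 had the most members (37), followed by chromosomes 1 (33), 2 (30) and 9 (29).

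Chromosome 18 also had the largest share of narrow peaks standing alone, 56.6% (49.6 to 63.3%), and the fewest peaks for its length, 2.80 per Mb between its first and last peak. The part of this low density in the 70.0% was not tested. Its 14 members were 1010 to 2608 bp wide with a median of 1393 bp, close to the median of all members, and their nearest peaks were 5.18 kb to 1.44 Mb away. Without chromosome 18, 23.1% (21.2 to 25.1%) of wide peaks stood alone.

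Chromosome 21 differed from 18 in that its narrow peaks stood alone about as often as elsewhere, at 33.5% (28.2 to 39.2%), while its wide peaks did not. Its single member, at chr21:32638246-32639349, was 1103 bp wide and 9518 bases from its nearest peak. On 21 of the 23 chromosomes the share standing alone was lower for wide than for narrow peaks, the exceptions being chromosomes 4 and 18.

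**Figure D5:**
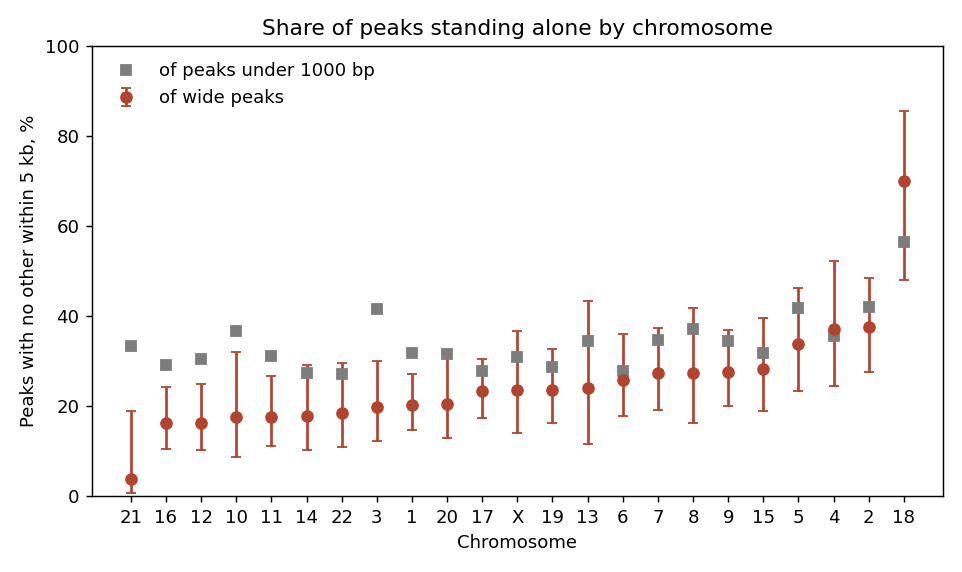
Share of peaks with no other peak within 5 kb (vertical axis, %) on each chromosome (horizontal axis, ordered by the share of wide peaks), for wide peaks (red circles with 95% Wilson intervals) and for peaks under 1000 bp (grey squares). The red circles run from 3.85% on chromosome 21 to 70.0% on chromosome 18 and lie below the grey squares on 21 of 23 chromosomes.

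The members on chromosome 22 were the widest by median. Its 12 members measured 1081 to 5706 bp with a median of 3409 bp, and 6 of them reached 3000 bp, of 42 such members in all. The medians of the other chromosomes ran from 1103 bp (chromosome 21) to 1736 bp (chromosome 19). Of the 20 widest members 5 were on chromosome 22. The 53 wide peaks with a neighbour on chromosome 22 had a median of 1526 bp, and 2 of them reached 3000 bp, so its wide peaks at large were not of this size. Chromosome 22 was singled out after its values were seen, and without it the median of the other 399 members was 1368 bp.

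On the chromosomes that had none of the 20 widest members, the widest ranged from the 1103 bp of chromosome 21 to 3850 bp. The latter lay at chr20:2124345-2128195, 26.3 kb from its nearest peak. It was followed by 3724 bp on chromosome 5 (chr5:154193369-154197093), 3283 bp on chromosome 15 (chr15:77471012-77474295), 3143 bp on chromosome 14 (chr14:21990742-21993885) and 3026 bp on chromosome 16 (chr16:72991205-72994231). Chromosome 7 followed with 3000 bp (chr7:143980812-143983812), at 75.9 kb from a peak, and the X chromosome with 2977 bp (chrX:39931564-39934541), at 7562 bases. Chromosomes 18 (2608 bp, chr18:72997372-72999980), 12 (2269 bp, chr12:46243810-46246079), 13 (1918 bp, chr13:24796920-24798838) and 10 (1864 bp, chr10:24908466-24910330) had no member of 3000 bp. On all chromosomes but 2, 4, 17 and 18, the widest peak had a neighbour and so was not a member. On chromosome 10 that peak measured 6870 bp, and on chromosome 13 it measured 8503 bp. On chromosome 18 the widest peak with a neighbour measured 1934 bp, less than its widest member.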

How the data were processed

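The authors deposited 1 list of YBX1 peaks holding a chromosome, a start and an end per peak, per the file headers. Trimmomatic, MACS2 and build hg19 are named in the submitters' processing notes, while for the aligner, the settings and the libraries behind the peaks the sources used here give nothing. Rows on Y and the mitochondrial chromosome (8) were left out as members. Distances run from edge to edge between peaks of a chromosome. Shares have 95% Wilson intervals, medians exact binomial intervals from order statistics, and differences of shares Newcombe intervals. With 1 sample a group, no test was made. The members and comparisons were chosen with earlier results of these data known. The positions named follow a rule on width, distance, chromosome and thresholds. No genes or sequences are given, since the tables at hand are on GRCh38.p14 and positions were not converted, so the fixed gene lists have no values. Planned results on peak strength, genes, base composition and motifs were not computed. The selection of members and the count of peaks within a distance were tested on simulated data. Joining peaks into runs, merging peaks and the intervals were not tested in this way. Python 3.11.15, numpy 2.4.6, pandas 2.3.3, scipy 1.17.1 and matplotlib 3.10.9 were used.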

Additional observations from a re-analysis of the deposited data

How the results depend on the processing

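Of 38 alternatives, 12 were chosen after seeing the data, all of them for the differences in standing alone and in run ends. Neither of these differences was itself planned. The number of members, 411, became 660 with a width minimum of 800 bp, 181 with 1500 bp, 619 with a distance of 2 kb, and 640 when only peaks of 500 bp or more counted as neighbours. It was 276 with a distance of 10 kb, or 67.2% of the members, 446 after merging peaks within 100 bases and 506 with distances between peak middles. The share of wide peaks standing alone was 35.6% at 2 kb, 15.9% at 10 kb and 36.8% with neighbours of 500 bp or more. The median width was 1117 bp and 2157 bp with minimums of 800 and 1500 bp. The median distance to the nearest peak, 17863 bases, was 8314 at 2 kb, 33419.5 at 10 kb, 30099.5 with neighbours of 500 bp or more and 12649 with a minimum of 1500 bp. Changes with the width minimum, the distance and the neighbours counted follow from the rule, which then takes other peaks. The highest chromosome, 18, was 2.96 times the common share of wide peaks, but 1.54 times (0.93 to 2.47) the common share when members were divided by lone peaks, an interval that includes the common share. The difference in run ends, 15.0 points, ranged from 13.4 to 20.4 points over 6 alternatives. The share standing alone was lower for wide than for narrow peaks under each of the 6 alternatives for it. The difference of -9.34 points became -15.2 at 2 kb, -7.03 at 10 kb and -21.5 with neighbours of 500 bp or more, and lay between -10.4 and -8.62 under the others. No paired analysis was possible because the groups hold a single sample each. Alternatives on gene overlap and peak score were not run. How deeply a neighbouring region had to be sequenced to appear as a peak is unknown, since the list has no read counts.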
